A study of Bos taurus with 10 samples.

Results

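The methionine cycle and its folate-linked feeder reactions are described here in the liver of Holstein dairy cows fed conjugated linoleic acid (CLA), a group of linoleic acid isomers whose double bonds are conjugated. The 10 enzymes MTR, BHMT, MAT1A, GNMT, AHCY, CBS, CTH, PEMT, SHMT1 and SHMT2 were taken as the members, and every array feature annotated with 1 of these symbols and no other was used. This gave 13 of the 24016 probe sets tested, which read 9 of the 10 genes. MTR had 3 probe sets, BHMT and GNMT had 2 each, and the other 6 genes had 1 each; sets of a gene are numbered here by falling mean signal. The NCBI gene identifiers in the array annotation are 280869 for MTR, 497025 for BHMT, 541078 for MAT1A, 538212 for GNMT, 508158 for AHCY, 514525 for CBS, 360197 for PEMT, 509002 for SHMT1 and 507197 for SHMT2. CTH, the last enzyme of transsulfuration, was not analysed here.

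The cows were first-calf and older females. The CLA group and the control group held 20 cows each, given rumen-protected CLA fat or rumen-protected control fat. The fat made up 27.3% of a supplemental concentrate of 630 g dry matter a day, and the trial ran from 3 weeks before calving to 14 weeks after it. Both groups ate the same partial mixed ration, plus individual concentrate, and liver was biopsied in week 5 of lactation. The RNA of 4 cows was combined for each array, so the 5 CLA and 5 control arrays are pools: p-values measure the spread between pools, not between cows. The comparison asks whether CLA changed the level of these transcripts early in lactation, when the liver of a high-yielding cow is under metabolic stress.

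In the methionine cycle, methionine is activated to S-adenosylmethionine, the methyl donor of most cellular methylations, and what remains after methyl transfer is split to homocysteine. Homocysteine is either remethylated, by a folate- and cobalamin-dependent route or by a betaine-dependent route, or passed to cysteine by transsulfuration. In liver these routes support the synthesis of phosphatidylcholine, which is needed to export fat as lipoprotein, and methyl groups come from choline, betaine, serine and folate.

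Values are log2 expression as the authors deposited them, and differences are CLA minus control on that scale, with the standard error (SE) of limma's moderated fit. Levels of different probe sets are not comparable as amounts of transcript. The groups are therefore compared within a probe set, within the mean of a list or within the difference between probe sets of a gene. Brightness ranks are given only as signal on the array. The 12 hepatocyte markers had mean log2 values of 7.25 or more, and their mean lay between 12.58 and 12.75 in the CLA pools, against 12.52 to 12.69 in the control pools. The array medians were a little lower in the CLA pools (5.79 to 5.82) than in the control pools (5.83 to 5.85), and the spread of values on an array was a little wider (SD 2.38 to 2.43 with CLA, 2.34 to 2.39 with control fat). The 3′ to 5′ log2 signal difference of the actin control probe sets, a measure of RNA integrity, was 1.26 to 2.48 with CLA and 1.53 to 2.77 with control fat, so the groups overlapped. CLA pool 2 and control pool 4 had the lowest mean correlations with the other arrays (0.990 each), and results that turn on them are also given without them. In bulk tissue, fewer cells of a type and less RNA per cell cannot be told apart.

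None of the 13 probe sets passed limma's test after Benjamini-Hochberg adjustment over the array, where 0 of 24016 probe sets passed (0%), and the lowest adjusted p among the members was 0.379. At an unadjusted p under 0.05, 2 of 13 member probe sets (15.4%) were called, both of them higher with CLA, against a background of 8.89% over the array (4.01% higher, 4.88% lower). At the array's own rate 1.16 of 13 would have been called, so the members' count lay near the background. Over the array the calls were 962 higher and 1173 lower as deposited, and 1474 higher and 627 lower after subtraction of array medians. The groups did not overlap at 1 member probe set, where the CLA pools were all above, against 1.97% of all probe sets, 1.18% with the CLA pools above and 0.791% with them below. Over the 13 probe sets 7 differences were positive and 6 negative, with a median of 0.05, beside a median of -0.02 over all probe sets and 0.03 over the brightest 2404 of them. Without CLA pool 2 and control pool 4 the members' median was -0.03.

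**Figure D1:**
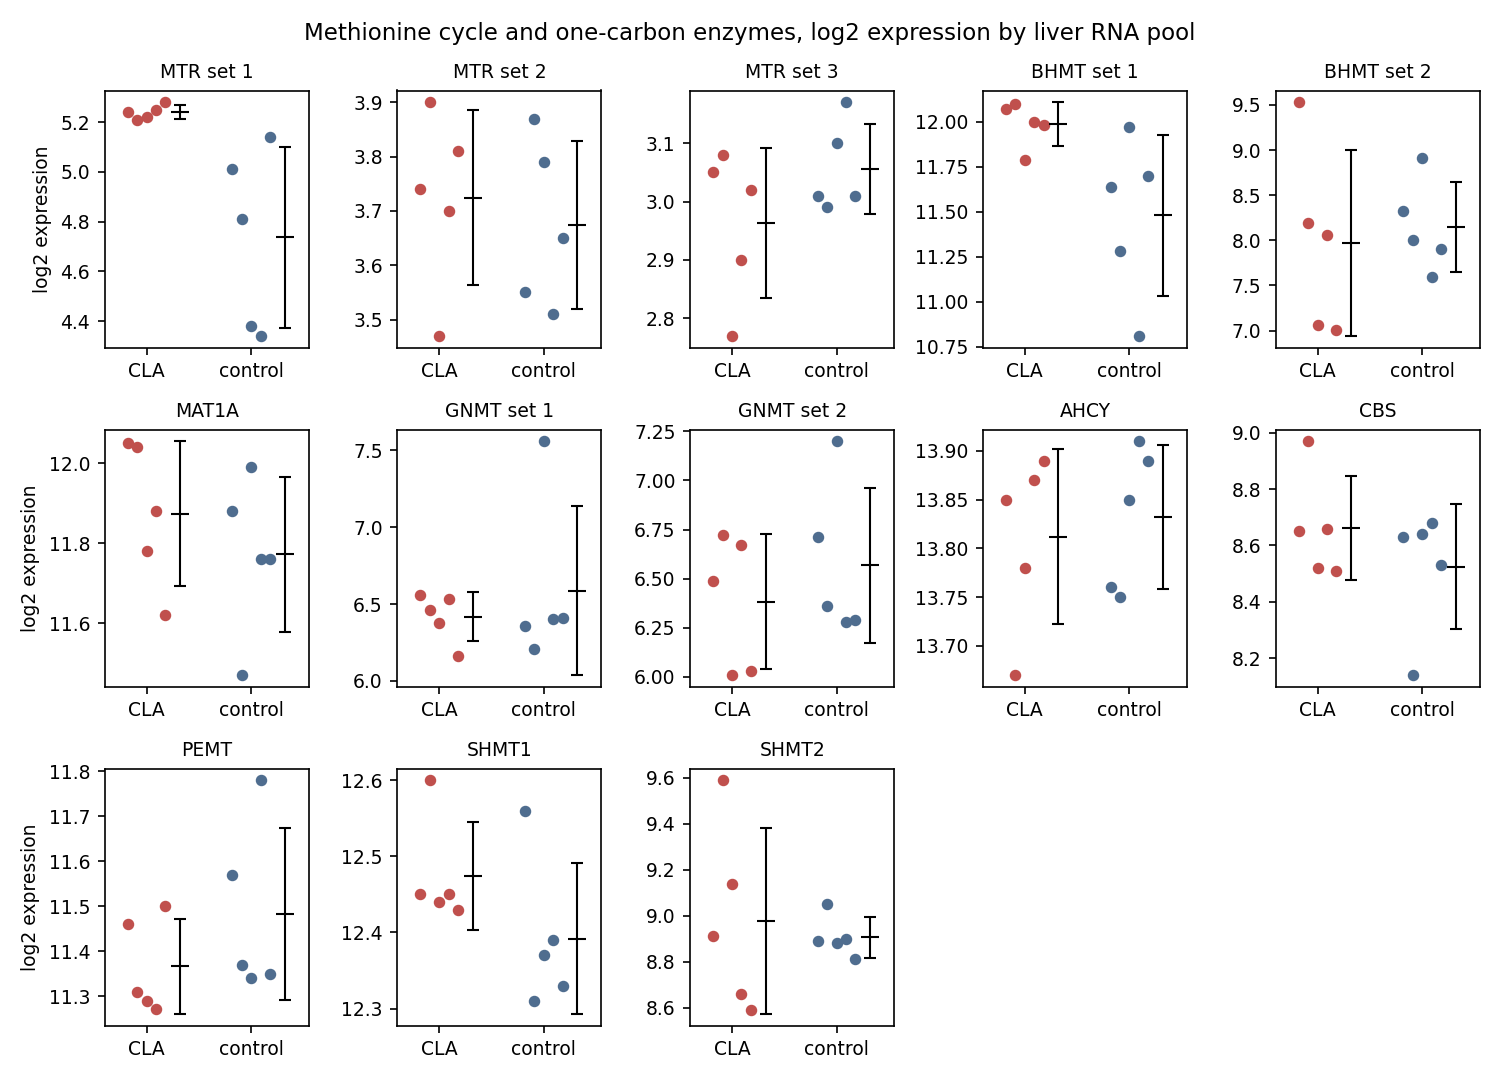
Log2 expression (vertical axes, a scale of its own in each panel) of the 13 member probe sets in the 5 CLA pools (red, left) and 5 control pools (blue, right); each point is 1 pool, and the bar is the mean with its SD. MTR set 1 is the only panel in which the groups do not overlap, with CLA pools between 5.21 and 5.28 and control pools between 4.34 and 5.14.

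The 2 called probe sets belonged to MTR and BHMT, which both remethylate homocysteine. MTR, methionine synthase, takes the methyl group from 5-methyltetrahydrofolate and needs cobalamin. At its first probe set MTR had log2 values of 5.24, 5.21, 5.22, 5.25 and 5.28 in CLA pools 1 to 5, against 5.01, 4.81, 4.38, 4.34 and 5.14 in control pools 1 to 5. All CLA pools lay above all control pools, and the CLA pools were close together (SD 0.027, n = 5) while the control pools were spread out (SD 0.363, n = 5). The difference was 0.50 ± 0.14 SE, a 1.42-fold higher level with a 95% confidence interval of 1.14 to 1.76-fold (limma, unadjusted p = 0.00407, adjusted p = 0.379). It lay between 0.405 and 0.605 when any single pool was left out, and was 0.41 without CLA pool 2 and control pool 4.

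The other MTR probe sets did not repeat this. The second ranged from 3.47 to 3.90 in the CLA pools and from 3.51 to 3.87 in the control pools, a difference of 0.05 ± 0.097 SE. The third ranged from 2.77 to 3.08 in the CLA pools and from 2.99 to 3.17 in the control pools, a difference of -0.09 ± 0.077 SE. All 3 lay in the dimmer part of the array: of all probe sets tested, 38.8% were as dim as the first or dimmer, 19.1% as the second and 6.56% as the third. Whether any of the 3 sets, the first included, measured MTR above background was not tested, for want of detection calls.

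Whether the probe sets of MTR differed from each other was tested directly. For every gene with several probe sets the brightest was set against each other one in every pool, and limma was run on that difference over all 4137 such pairs of 2913 genes. The CLA minus control difference of the first MTR probe set exceeded that of the second by 0.45 ± 0.17 SE (unadjusted p = 0.0198) and that of the third by 0.60 ± 0.18 SE (unadjusted p = 0.00518). The first of these calls ended without CLA pool 3 or control pool 3 (unadjusted p of up to 0.0576). Neither passed adjustment over all pairs (adjusted p = 0.519 and 0.409), and 7.71% of all pairs had an unadjusted p under 0.05, so such differences between probe sets were no rarity here. After adjustment 0.0242% of pairs were called, 1 pair that belongs to no member (CA13, a carbonic anhydrase gene named after its value was seen). The first and the third MTR probe sets, with group means removed, correlated over the 10 pools at r = -0.44 (exact permutation p = 0.0968, adjusted p = 0.161 over 5 pairs of probe sets of 1 gene, rho -0.47 with exact permutation p = 0.117), and at r = -0.25 without control pools 4 and 5.

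BHMT, betaine-homocysteine methyltransferase, takes its methyl group from betaine, an oxidation product of choline. Its first probe set had log2 values of 12.07, 12.10, 11.79, 12.00 and 11.98 in CLA pools 1 to 5, against 11.64, 11.28, 11.97, 10.81 and 11.70 in control pools 1 to 5. In 4 of 5 CLA pools the value was above every control pool, and CLA pool 3 lay below control pool 3 alone. The difference was 0.51 ± 0.18 SE, 1.42-fold with a 95% confidence interval of 1.09 to 1.86-fold (limma, unadjusted p = 0.0139, adjusted p = 0.446). Control pool 4 was the lowest pool, and the difference was 0.34 without it and 0.31 without it and CLA pool 2 (unadjusted p = 0.0391), against 0.63 without control pool 3.

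The second BHMT probe set had log2 values of 9.53, 8.19, 7.06, 8.06 and 7.01 in CLA pools 1 to 5, against 8.33, 8.0, 8.91, 7.59 and 7.90 in control pools 1 to 5. The CLA pools held both the highest and the lowest values of the 10, and 99.8% of all probe sets had a within-group SD no larger than its 0.81. The difference was -0.18 ± 0.42 SE, with a 95% confidence interval from -1.09 to 0.74 that holds the value of the first probe set. Its sign turned without CLA pool 3 (0.05), CLA pool 5 (0.06) or control pool 3 (0.02). The first BHMT probe set exceeded it by 0.68 ± 0.36 SE in the test of pairs (unadjusted p = 0.0777, adjusted p = 0.653). When any single pool was left out, that gap lay between 0.446 and 1.05. It was largest without CLA pool 1, in which the second probe set stood highest (1.05, unadjusted p = 0.000625). It was smallest without CLA pool 5 (0.446, unadjusted p = 0.211), and limma called it with no single pool left out other than CLA pool 1.

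Control pool 3 was the highest and control pool 4 the lowest of the control pools at both BHMT probe sets. With group means removed, over all 10 pools Pearson's r between them was 0.51 (exact permutation p = 0.0208, Benjamini-Hochberg adjusted p = 0.0519 over 5 pairs of probe sets of 1 gene) and Spearman's rho was 0.59 (exact permutation p = 0.0336). Without the 2 pools farthest from the median, control pools 3 and 4, r was 0.41. In RefSeq (assembly ARS-UCD2.0) BHMT lies beside BHMT2, a paralog of similar function, and whether its probe sets also bind BHMT2 transcripts was not tested.

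**Figure D2:**
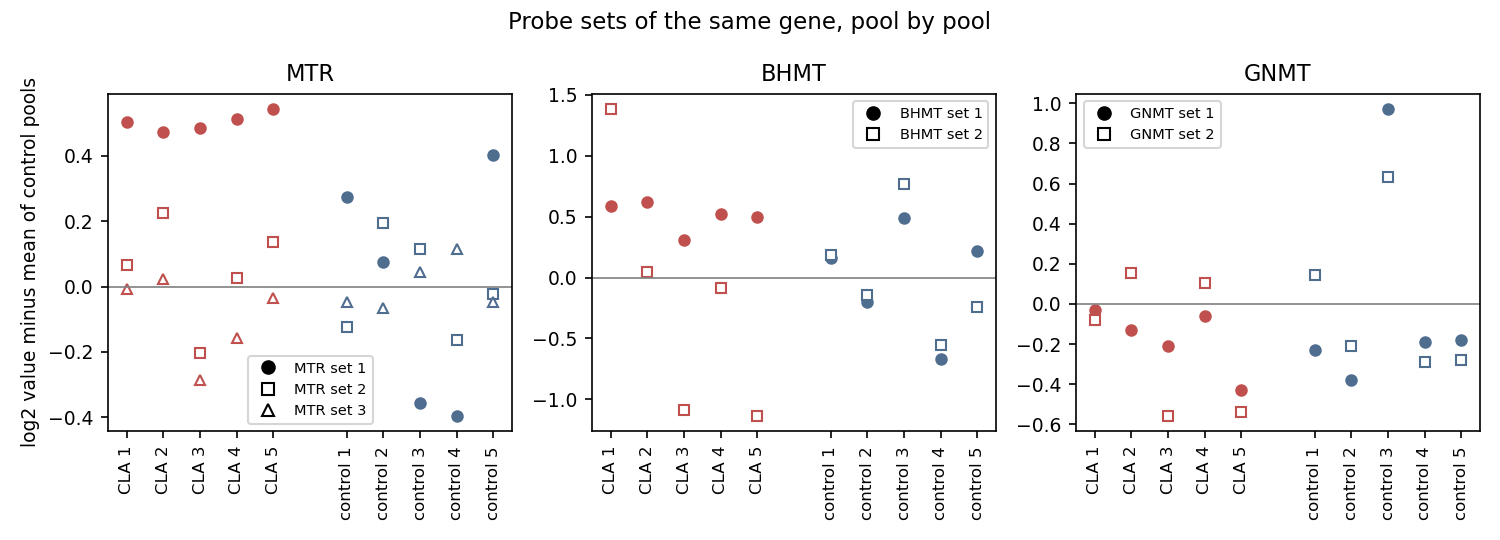
Log2 value after subtraction of the control mean (vertical axis) for each probe set of MTR, BHMT and GNMT in the 5 CLA pools (red, left) and 5 control pools (blue, right); filled circles are set 1, open squares set 2 and open triangles set 3. For MTR and BHMT set 1 lies above the other sets in most CLA pools, while for GNMT both sets peak in control pool 3.

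MAT1A, the liver enzyme that makes S-adenosylmethionine from methionine, was read by 1 probe set. Its log2 values ran from 11.62 to 12.05 in the CLA pools and from 11.47 to 11.99 in the control pools. The groups overlapped, with 2 of 5 CLA pools above every control pool. The difference was 0.10 ± 0.11 SE with a 95% confidence interval of 0.908 to 1.27-fold. It was 0.03 without control pool 2, the lowest pool, and 0.17 without CLA pool 5.

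Among the methyltransferases that use S-adenosylmethionine, GNMT methylates glycine to sarcosine and takes up surplus methyl groups. Its first probe set had log2 values of 6.56, 6.46, 6.38, 6.53 and 6.16 in CLA pools 1 to 5, against 6.36, 6.21, 7.56, 6.40 and 6.41 in control pools 1 to 5. Control pool 3 stood apart, and the next highest pool was CLA pool 1. The difference was -0.17 ± 0.21 SE and turned to 0.07 without control pool 3. The second GNMT probe set also had its highest value in control pool 3, 7.2, and differed by -0.18 ± 0.20 SE, or -0.03 without that pool. Between the GNMT probe sets r over all pools, group means removed, was 0.78 (exact permutation p = 0.0188, adjusted p = 0.0519 over 5 pairs), rho was 0.56 (exact permutation p = 0.0890), and r was 0.62 without control pools 2 and 3.

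PEMT, which methylates phosphatidylethanolamine to phosphatidylcholine, was read by 1 probe set. Its log2 values were between 11.27 and 11.50 in the CLA pools and between 11.34 and 11.78 in the control pools. In 3 of 5 CLA pools PEMT was below every control pool. The difference was -0.12 ± 0.096 SE (limma, unadjusted p = 0.251), with a 95% confidence interval of 0.798 to 1.07-fold, and -0.04 without control pool 4, the highest pool.

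AHCY splits S-adenosylhomocysteine, an inhibitor of methyltransferases, into homocysteine and adenosine. At its probe set, brighter than 99.8% of the probe sets or equal to them, its log2 values ran from 13.67 to 13.89 in the CLA pools and from 13.75 to 13.91 in the control pools. The difference was -0.02 ± 0.069 SE, the smallest of the 13, and the 95% confidence interval left room for a change between 0.889 and 1.09-fold. The sign turned without CLA pool 2 (0.02), without CLA pool 2 and control pool 4 (0.035), after subtraction of array medians (0.011) and with array weights (0.00604). AHCY ran against the spread of values on the array, group means removed (r = -0.72, exact permutation p = 0.0267, adjusted p = 0.241 over 18 relations, rho -0.78 with exact permutation p = 0.0144, r = -0.70 without CLA pool 5 and control pool 5), and the part of that spread in its values was not tested.

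CBS joins homocysteine with serine in the first step of transsulfuration. Its log2 values were between 8.51 and 8.97 in the CLA pools and between 8.14 and 8.68 in the control pools. CLA pool 2 was the highest of the 10 pools and control pool 2 the lowest. The difference was 0.14 ± 0.12 SE with a 95% confidence interval of 0.921 to 1.31-fold, and 0.04 without control pool 2.

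SHMT1 and SHMT2, the cytosolic and the mitochondrial serine hydroxymethyltransferase, move a carbon unit from serine to folate and release glycine. SHMT1 varied little, from 12.43 to 12.60 in the CLA pools and from 12.31 to 12.56 in the control pools, and all 5 CLA pools lay above the control mean. Its difference was 0.08 ± 0.070 SE, 0.952 to 1.18-fold by the 95% confidence interval. SHMT2 had log2 values of 8.91, 9.59, 9.14, 8.66 and 8.59 in CLA pools 1 to 5, against 8.89, 9.05, 8.88, 8.90 and 8.81 in control pools 1 to 5. Here the CLA pools were the spread-out group (SD 0.405, n = 5) and the control pools the narrow one (SD 0.088, n = 5), the reverse of MTR and of the first BHMT probe set. The SHMT2 difference of 0.07 ± 0.16 SE turned to -0.08 without CLA pool 2. With group means removed SHMT2 correlated positively with the array-wide spread (r = 0.76, exact permutation p = 0.00507, adjusted p = 0.0912 over 18 relations, rho 0.77 with exact permutation p = 0.0172, r = 0.87 without CLA pool 5 and control pool 5), which was likewise not tested as a part of its values.

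**Figure D3:**
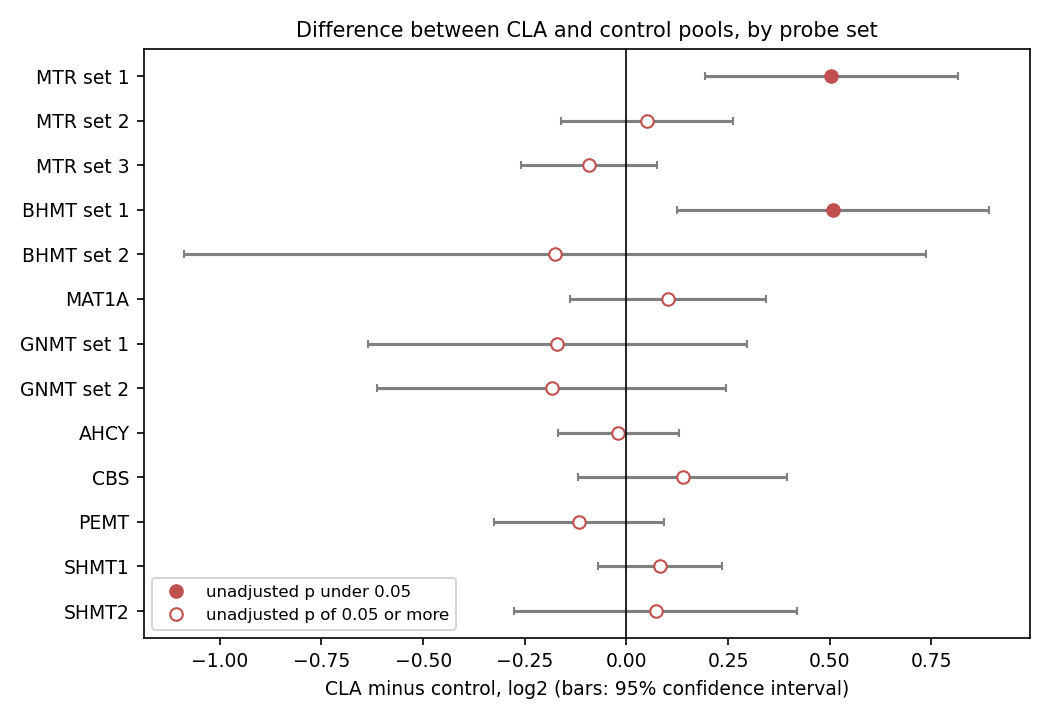
CLA minus control difference in log2 expression (horizontal axis) of each member probe set, with limma's 95% confidence interval; filled points have an unadjusted p under 0.05. The intervals of MTR set 1 and BHMT set 1 exclude 0, that of BHMT set 2 is the widest (-1.09 to 0.74) and that of AHCY is among the narrowest (-0.17 to 0.13).

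The correlations between members had no common sign, though the same was not computed over other genes. Of 36 pairs of the 9 genes, each at its brightest probe set and with group means removed, 19 correlated positively and 17 negatively, with a median r of 0.06. AHCY and SHMT2 were opposed (r = -0.83, exact permutation p = 0.00167, adjusted p = 0.0600 over 36 pairs, rho -0.77 with exact permutation p = 0.0174, r = -0.60 without CLA pool 2 and control pool 2). MAT1A and CBS varied together (r = 0.82, exact permutation p = 0.00736, adjusted p = 0.1325, rho 0.66 with exact permutation p = 0.0507, r = 0.56 without control pool 2 and CLA pool 5). No pair passed the adjustment. Among the control pools, control pool 2 was the lowest at 5 of the 9 genes. Among the CLA pools, CLA pool 5 was the lowest at 5 and CLA pool 2 the highest at 4. Whether such counts exceed chance was not tested.

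By likeness of pattern (Pearson's r over the 10 pools after group means were removed), the gene nearest to the first BHMT probe set was SLC5A10 (r = 0.93), followed by CAPN3 (0.93), TMEM167A (0.92), ADTRP (0.91) and DGKZ (0.90). Those nearest to the first MTR probe set were CREB1 and LMBR1 (0.96 each), FAM221A (0.92), TRAF3 (0.89) and SLC6A15 (0.89). These were picked as the highest among all probe sets with 1 gene symbol, of which 5% exceeded 0.55 for BHMT and 0.54 for MTR, and the points share the same 10 arrays. The CLA pools varied less than the control pools (SD 0.027 and 0.363 for MTR, 0.121 and 0.448 for BHMT). The r values therefore rest mostly on the 5 control pools, above all for MTR, and were not recomputed with pools left out.

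The rest of the pathway was read by 101 probe sets of 70 genes, out of 97 symbols in 9 lists. After adjustment over the array 0 passed (lowest adjusted p = 0.252). At an unadjusted p under 0.05 limma called 10 (9.90%, against 8.89% of all), of which 8 were higher with CLA and 2 lower, so this count too lay near the background. The groups did not overlap at 4 of 101 (3.96%, against 1.97% of all probe sets). The median difference was 0.00, with 52 positive and 49 negative.

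**Figure D4:**
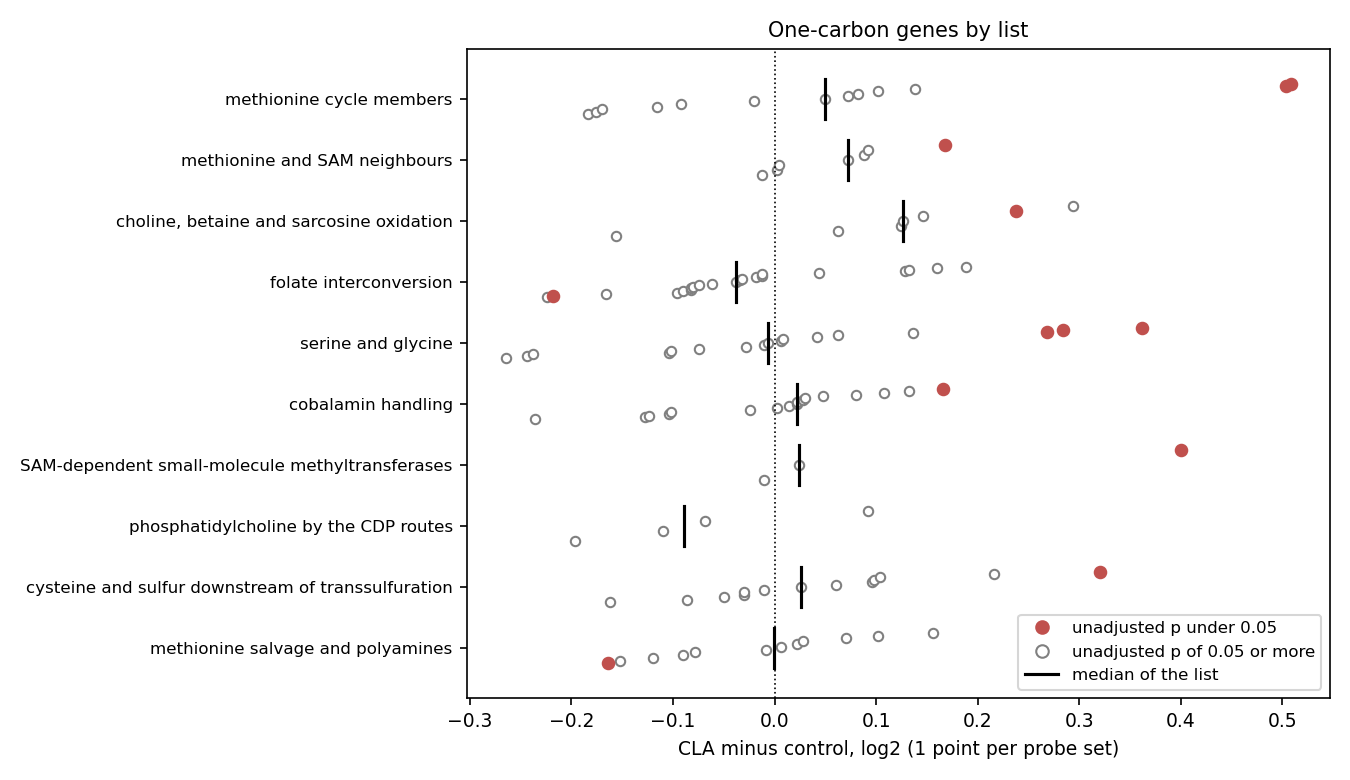
CLA minus control difference in log2 expression (horizontal axis) of every probe set of the members (top row) and of the 9 other lists (rows below); filled points have an unadjusted p under 0.05 and the black bar is the list's median. MTR and BHMT lie farthest to the right at 0.50 and 0.51, followed by TPMT at 0.40 and GATM at 0.36.

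In the list of serine and glycine metabolism 3 of 17 probe sets were called, all higher in the CLA pools and all without overlap, while the list's median was -0.01. The share called was 17.6%, against 8.89% over the array (4.01% higher), where 1.97% did not overlap. GCSH, the lipoyl-bearing H protein of the glycine cleavage system, which feeds carbon from glycine into folate, had log2 values of 10.33, 10.25, 10.33, 10.28 and 10.28 in CLA pools 1 to 5, against 9.95, 10.07, 10, 10.07 and 10.04 in control pools 1 to 5. The groups were 0.27 ± 0.059 SE apart (limma, unadjusted p = 0.000629, adjusted p = 0.283), and the dimmer second GCSH probe set differed by 0.01 ± 0.091 SE. DLD, the dehydrogenase that the glycine cleavage system shares with the pyruvate and other keto acid dehydrogenase complexes, had 10.06, 10.16, 10.12, 10.01 and 9.99 in CLA pools 1 to 5, against 9.80, 9.81, 9.91, 9.63 and 9.77 in control pools 1 to 5. Its difference was 0.28 ± 0.070 SE (unadjusted p = 0.00162, adjusted p = 0.332). Of the other proteins of the system AMT, the aminomethyltransferase, differed by 0.14 ± 0.099 SE and GLDC, the decarboxylase, by 0.04 ± 0.20 SE.

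GATM, which makes guanidinoacetate from arginine and glycine in the first step of creatine synthesis, had log2 values of 12.73, 12.93, 12.77, 12.71 and 12.92 in CLA pools 1 to 5, against 12.25, 12.43, 12.69, 12.23 and 12.65 in control pools 1 to 5. All CLA pools were above all control pools, though CLA pool 4 (12.71) was close to control pool 3 (12.69), and the difference was 0.36 ± 0.10 SE (limma, unadjusted p = 0.00409, adjusted p = 0.379). GAMT, which completes creatine with a methyl group from S-adenosylmethionine and is a large user of methyl groups in mammals, differed by 0.02 ± 0.10 SE. TPMT, which methylates thiopurines, led the list of small-molecule methyltransferases (3 of 7 genes measured) with 8.60, 8.67, 8.80, 8.66 and 8.55 in CLA pools 1 to 5, against 8.26, 8.29, 8.37, 8.18 and 8.18 in control pools 1 to 5. TPMT had the lowest p of the 101 probe sets, with a difference of 0.40 ± 0.070 SE (unadjusted p = 9.63e-05, adjusted p = 0.252). The histamine methyltransferase HNMT differed by -0.01 ± 0.11 SE.

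**Figure D5:**
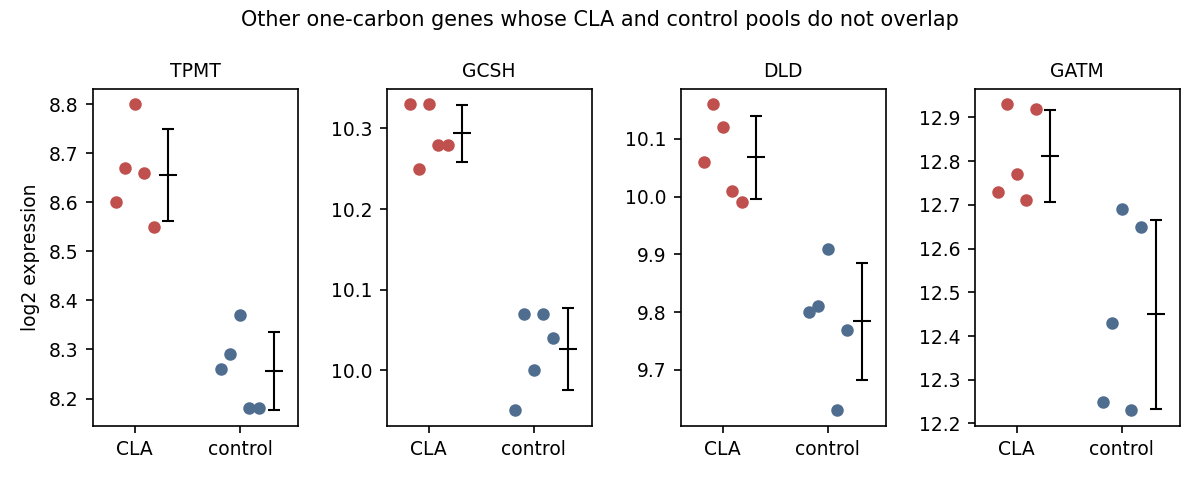
Log2 expression (vertical axes, a scale of its own in each panel) of the 4 other one-carbon probe sets without overlap between the 5 CLA pools (red, left) and 5 control pools (blue, right); points are pools and the bar is the mean with its SD. TPMT, GCSH and DLD show a gap between the groups, while for GATM the lowest CLA pool (12.71) lies just above the highest control pool (12.69).

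In the list of choline, betaine and sarcosine oxidation 4 of 7 genes were measured. Of their 7 probe sets 6 were positive (median 0.13) and 1 was called. Some genes count more than once here, and over the array 10437 of 24016 probe sets were positive, or 1468 of the brightest 2404. ALDH7A1, an aldehyde dehydrogenase that acts on betaine aldehyde, was higher at its brightest probe set (0.24 ± 0.083 SE, limma, unadjusted p = 0.0144) and differed by 0.29 ± 0.15 SE and 0.13 ± 0.091 SE at its others. That call ended without CLA pool 2 and control pool 4 (0.20, unadjusted p = 0.0590). DMGDH, which oxidises the dimethylglycine released by BHMT, differed by 0.15 ± 0.083 SE, and SARDH, which oxidises the sarcosine released by GNMT, by 0.12 ± 0.096 SE.

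Beside the methionine cycle itself 6 of 7 probe sets were positive (median 0.07). These sets read 5 genes, so some count more than once, and over the array 10437 of 24016 probe sets were positive. ADK, which removes the adenosine released by AHCY, was called (0.17 ± 0.073 SE, limma, unadjusted p = 0.0397). MTRR, which reactivates MTR, was dim and differed by -0.01 ± 0.079 SE. In cobalamin handling 11 of 17 were positive (median 0.02). The called gene was MMUT, methylmalonyl-CoA mutase, with MTR the other cobalamin-dependent enzyme of mammals (0.17 ± 0.068 SE, unadjusted p = 0.0316). Both calls ended when single pools were left out, at an unadjusted p of up to 0.101 for ADK and 0.0781 for MMUT, without CLA pool 2 and control pool 4 (0.0910 for ADK, 0.0707 for MMUT) and after quantile and cyclic loess normalization, and that of ADK also with array weights (0.0582).

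Of the folate genes 16 of 21 probe sets were negative, with a median of -0.04. These sets read 14 genes, so some genes count more than once, and over the array 13414 of 24016 probe sets were negative. ALDH1L2, the mitochondrial 10-formyltetrahydrofolate dehydrogenase, was lower (-0.22 ± 0.087 SE, limma, unadjusted p = 0.0280), with log2 values of 6.37 to 6.59 in the CLA pools against 6.58 to 6.92 in the control pools, and the call ended without CLA pool 1 or control pools 1 or 4 (unadjusted p of up to 0.0740), without CLA pool 2 and control pool 4 (0.0810) and after subtraction of array medians (0.0552). ALDH1L1, its cytosolic counterpart, differed by -0.09 ± 0.099 SE, and MTHFD1, the trifunctional cytosolic enzyme, by 0.04 ± 0.078 SE. The scaling matters for such small medians: the median over all probe sets was -0.02 as deposited and 0.01 after subtraction of array medians.

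Of the routes that make phosphatidylcholine from choline and its sister lipid from ethanolamine 4 of 11 symbols were read, without CHKA and PCYT1A. Of the 4 genes 3 were negative (median -0.09) and none was called. PCYT2, the rate-limiting enzyme of the ethanolamine route, differed by -0.20 ± 0.096 SE (limma, unadjusted p = 0.0646). It was -0.13 without CLA pool 2 and -0.09 without CLA pool 2 and control pool 4, but limma called it without control pool 1 (-0.23, unadjusted p = 0.0405) and after quantile normalization (-0.23, unadjusted p = 0.0440). The mean of the 4 genes lay between 10.215 and 10.28 in the CLA pools, against 10.30 to 10.35 in the control pools, without overlap. This was the only one of the 9 lists whose mean did so, and each of the 4 probe sets overlapped by itself. How often means of 4 genes separate over the array was not tested. The array medians were separated in the same direction, and after they were subtracted the ranges overlapped (4.40 to 4.475 with CLA, 4.45 to 4.51 with control fat). The median difference over the brightest 2404 probe sets was positive (0.03). The mean of the 4 genes was not recomputed under quantile or cyclic loess scaling.

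Downstream of transsulfuration 7 of 13 probe sets were positive (median 0.03). GOT1, the cytosolic aspartate aminotransferase, which also acts on cysteine sulfinate, was higher by 0.32 ± 0.12 SE (limma, unadjusted p = 0.0229), a call that ended without CLA pool 1 (0.24, unadjusted p = 0.0621) or control pool 2. CDO1, the cysteine dioxygenase that starts taurine synthesis, differed by 0.22 ± 0.11 SE at its brighter probe set. In methionine salvage and polyamine synthesis 6 were positive and 6 negative of 12, and SAT1, which acetylates polyamines for export, was lower (-0.16 ± 0.067 SE, unadjusted p = 0.0304). That call ended when any of 6 single pools was left out (unadjusted p of up to 0.0680), without CLA pool 2 and control pool 4 (0.105) and after subtraction of array medians. AMD1, which turns S-adenosylmethionine over to polyamine synthesis, differed by 0.16 ± 0.075 SE at its brighter probe set.

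Marker genes of the cells that make up liver are given beside these values. Some have several probe sets, and over all 24016 probe sets 10437 differences were positive and 13414 negative. Signs went with brightness: of the brightest 2404 probe sets 1468 were positive and 906 negative (61.8% positive). Of 30 hepatocyte probe sets 20 were positive (median 0.04). Markers known from mouse to lie around the portal vein had 8 of 15 positive (median 0.01), and those around the central vein 2 of 9 (median -0.02). Markers of T and NK lymphocytes were negative in 16 of 20 probe sets (median -0.13), with a mean of 6.14 to 6.40 in the CLA pools against 6.25 to 6.68 in the control pools, and those of Kupffer cells and macrophages in 11 of 12 (median -0.08), with a mean of 9.29 to 9.57 in the CLA pools against 9.26 to 9.71 in the control pools. Every marker list of the 11 overlapped between the groups in its mean level, and the part of cell composition in the MTR, BHMT, TPMT, GCSH, DLD and GATM values was not tested.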

How the data were processed

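Liver RNA pools were hybridized to the Affymetrix bovine array, 1 array per pool. Per the submitters' processing notes the authors used Affymetrix Expression Console 1.1 and RMA; the deposited log2 values were used without further normalization. Order and settings of these steps are not given in the sources used here. Of 24128 probe sets 112 manufacturer controls were left out. The platform annotation gave 1 gene symbol to 13292 of the others, several to 86 and none to 10638; the gene identifiers of all 13 member probe sets were found in RefSeq with the same symbol. Apart from the RefSeq assembly used for the neighbour of BHMT, no genome build was named, and no coordinates are given.

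CLA minus control was fitted with limma 3.58.1 (lmFit, eBayes; R 4.3.3) on 10 arrays without covariates, adjusted over 24016 probe sets by Benjamini-Hochberg. The fit was run on simulated normal values with equal spread in both groups and no shift between arrays. That run does not cover the unequal spreads and separated array medians of these data. No detection calls or scanner files were used, and precision is limited by how many arrays there are. Correlations used group-centred values and all 14400 permutations of pools within groups. Alternatives were single pools left out, the pool number as a block, quantile, cyclic loess and median scaling, a filter on the dimmest 30%, trend and robust options and array weights; leaving out CLA pool 2 with control pool 4 was chosen after seeing the data.

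Members and gene lists were chosen with earlier results of these data known. Named are all member probe sets, the gene of smallest p in each other list, every gene there with an unadjusted p under 0.05, and the 5 genes most like BHMT and MTR. AMT, GLDC, GAMT, HNMT, DMGDH, SARDH, MTRR, ALDH1L1, MTHFD1, CDO1, AMD1, CA13 and CGN1 are given outside this rule.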

Additional observations from a re-analysis of the deposited data

Results flagged for a closer look

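In 3 of the 54 groups of 5 pools checked, 1 pool lay far from the other 4, with a gap to the nearest pool of over 0.71 of the group's range; chance alone flags about 1 group in 20. GNMT in control pool 3 read 7.56 at the first probe set, against 6.21 to 6.41 in the other control pools, and the second GNMT probe set was also highest there. CBS in control pool 2 read 8.14, against 8.53 to 8.68 in the other control pools. SHMT1 in CLA pool 2 read 12.60, against 12.43 to 12.45 in the other CLA pools.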

How the results depend on the processing

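Over the alternatives, 484 of 500 recomputed values of 28 named differences kept their sign. The first MTR and BHMT probe sets stayed under an unadjusted p of 0.05 in every alternative, as did TPMT, GCSH, DLD and GATM, and the members' count stayed at 2. None of the alternatives let the variance of a probe set differ between the groups. The SDs did differ: 0.027 with CLA and 0.363 with control fat for MTR, 0.121 and 0.448 for BHMT. Whether these 2 calls hold under unequal variances was not tested. Without single pools the count over the other one-carbon probe sets lay between 5 (without CLA pool 1) and 13, the count over all probe sets between 1575 and 2297, and the pairs past adjustment between 0 and 1 (1, the CA13 pair, without CLA pool 4 or control pool 3). No pair passed with the replicate block, with array weights or without CLA pool 2 and control pool 4 (0 each), and without these 2 pools 1 probe set passed adjustment, that of CGN1, the collectin conglutinin. Signs turned when pools were left out for BHMT set 2 (-0.566 to 0.064), GNMT set 1 (-0.2645 to 0.073), AHCY (-0.0405 to 0.0155 for single pools), SHMT2 (-0.081 to 0.169), and the GNMT pair (-0.0785 to 0.099). Without CLA pool 2 and control pool 4 MTR set 2 gave -0.035, which lay up to 0.1135 for single pools, AHCY 0.035, SHMT2 -0.0825 and the GNMT pair 0.1125. AHCY also turned after subtraction of array medians (0.011) and with array weights (0.00604), and SHMT2 with array weights (-0.0188). The cause was not tested. Calls at an unadjusted p under 0.05 were split 962 higher to 1173 lower as deposited, 1100 to 817 after quantile normalization, 1196 to 779 after cyclic loess and 1474 to 627 after subtraction of array medians. Pools of the same number did not vary together (correlations of their deviations from -0.09 to 0.09, and 2 of 10 pools closest to their own number), so the numbers are not taken as pairs. With the pool number as a block the first MTR probe set gave 0.50 and the first BHMT probe set 0.51, limma called 11 other one-carbon probe sets and 2168 in all, and 0 passed adjustment. Under this block limma no longer called ALDH1L2 (unadjusted p = 0.0597), SAT1 (unadjusted p = 0.0693) or MMUT (unadjusted p = 0.0642), and called PCYT2 (unadjusted p = 0.0495). The dimmest 30% held both dimmer MTR probe sets, so their pairs were not recomputed without them.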
